A study of Mus musculus with 12 samples.

Results

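Disallowed genes are genes that most tissues use but that normal pancreatic beta cells keep at very low levels. Their products include enzymes, signal transducers and secreted proteins, and switching some of them on is known to disturb how beta cells couple insulin release to glucose. The 10 genes described here are mouse genes normally silenced in beta cells, given as a list of symbols: *Cat*, *Mgst1*, *Oat*, *Acot7*, *Maf*, *Lmo4*, *Smad3*, *Igfbp4*, *Cxcl12* and *Zdhhc9*. All 10 were found among the 38924 gene identifiers of the count tables, and all 10 passed the filter on low counts, as did 16645 genes in all.

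The RNA came from 12 pancreatic neuroendocrine tumors (PanNETs) of RIP1Tag2 mice on the C57Bl6 strain, in which the rat insulin promoter drives a viral oncogene in beta cells, so that all groups carry the same transgene. The groups were 4 tumors from control mice given saline (control), 4 from mice given sunitinib, an inhibitor of VEGF and PDGF receptor kinases, and 4 from mice given rapamycin, an inhibitor of mTORC1, together with sunitinib (R+S). The comparisons ask how tumors respond when their blood supply is blocked, and what an mTOR inhibitor adds. All mice were treated for 4 days from 15.5 weeks of age. Tumors are named by the replicate number in their labels: control tumors 1, 2, 3 and 4, sunitinib-treated tumors 5, 6, 8 and 12, and R+S-treated tumors 4, 5, 7 and 10. The labels do not say which tumors came from the same mouse. They carry a prefix that is shared by the 4 control tumors, by sunitinib-treated tumors 5, 6 and 8 and by R+S-treated tumors 5 and 7, and whose meaning is not stated. Prefixes differ between groups, so prefix and treatment cannot be told apart, and p-values measure the spread between these tumors. In bulk tumor RNA, fewer cells of a type and less RNA per cell cannot be told apart.

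Gene-assigned reads numbered 31872342 to 44215054 in a tumor. Levels are given as normalized CPM, each gene's counts scaled to a library size corrected by TMM. Sunitinib-treated tumor 6 stood apart. Across genes its log2 CPM had Pearson correlations of 0.872 to 0.895 with the other tumors of its group, while all other pairs within a group had 0.957 to 0.991. The 16 beta-cell genes used to check the tumor label, such as *Ins1*, *Ins2*, *Pdx1* and *Mafa*, summed to 34300 to 79100 CPM in the other 3 sunitinib-treated tumors, 41300 to 64700 CPM in control tumors and 43700 to 71100 CPM in R+S-treated tumors, but to 3160 CPM in tumor 6. Tumor 6 was the lowest of the 12 tumors for 15 of the 16. The members' results are therefore given with and without tumor 6, and those of other lists without it where its omission changed a call or moved a value by much. Other cell types also moved with treatment. The 12 endothelial genes summed to 533 to 722 CPM in control, 74.4 to 114 CPM in sunitinib-treated and 135 to 176 CPM in R+S-treated tumors. The 18 acinar genes summed to 41.0 to 125 CPM in control, 11000 to 40000 CPM in sunitinib-treated and 3000 to 16600 CPM in R+S-treated tumors. Summed levels in control, sunitinib-treated and R+S-treated tumors, in that order, were 68.7 to 375, 1.66 to 4.81 and 2.96 to 22.2 CPM for 5 erythroid genes, 763 to 1540, 865 to 1180 and 655 to 948 CPM for 12 fibroblast and pericyte genes, 554 to 782, 255 to 776 and 368 to 547 CPM for 11 leukocyte genes, 494 to 663, 269 to 771 and 495 to 629 CPM for 9 duct genes, 692 to 1160, 787 to 1030 and 477 to 863 CPM for 6 alpha-cell genes and 3.8 to 30.4, 1.57 to 10.4 and 9.95 to 44.6 CPM for 3 delta- and PP-cell genes. Single markers could move apart from these sums. With sunitinib against control, 3 duct genes rose by edgeR, *Sox9*, *Spp1* and *Muc1*, with log2 fold changes of 3.81, 3.10 and 2.78 (adjusted p = 0.025, 0.035 and 0.00449), and *Spp1* was not called without tumor 6 (2.77, adjusted p = 0.0528). Of the fibroblast and pericyte genes 3 fell, *Rgs5*, *Pdgfrb* and *Notch3*, with -1.41, -1.19 and -1.35 (edgeR adjusted p = 0.000532, 0.018 and 0.0228), and 9 were not called. Without tumor 6 *Thy1* was also called as lower (-1.30, adjusted p = 0.017). Of the leukocyte genes 1 fell, *Adgre1*, with -1.14 (edgeR adjusted p = 0.00509), and 9 tested genes were not called. The part of these cell types in the results on the members was not tested.

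Silencing of disallowed genes in beta cells is known to involve DNA methylation of CpG sites in some cases, so the promoters of the members that stood highest in tumor 6 relative to the other sunitinib-treated tumors, apart from *Maf*, are shown. RefSeq windows on GRCm38.p6 from 250 bases before to 50 bases after a transcription start were found for 9 of the 10 members, all but *Maf*, with 12 windows in all. Each window is printed 5′ to 3′ on the strand of its gene, with CpG sites in capitals: *Igfbp4* at chr11:99040994-99041293 on the plus strand, *Oat* at chr7:132576349-132576648 on the minus strand and *Acot7* at chr4:152185358-152185657 on the plus strand.
Igfbp4: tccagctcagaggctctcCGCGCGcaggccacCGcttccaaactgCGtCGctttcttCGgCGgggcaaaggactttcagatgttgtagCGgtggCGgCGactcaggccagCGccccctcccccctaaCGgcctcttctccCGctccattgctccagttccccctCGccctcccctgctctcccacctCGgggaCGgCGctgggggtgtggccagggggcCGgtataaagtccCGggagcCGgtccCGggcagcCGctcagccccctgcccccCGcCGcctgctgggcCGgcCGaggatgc
Oat: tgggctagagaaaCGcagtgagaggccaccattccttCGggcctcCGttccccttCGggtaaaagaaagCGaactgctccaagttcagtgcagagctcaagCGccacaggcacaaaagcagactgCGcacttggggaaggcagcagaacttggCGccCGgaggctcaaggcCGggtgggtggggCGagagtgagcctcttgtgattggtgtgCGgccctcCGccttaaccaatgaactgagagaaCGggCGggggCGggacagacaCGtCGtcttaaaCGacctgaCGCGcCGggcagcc
Acot7: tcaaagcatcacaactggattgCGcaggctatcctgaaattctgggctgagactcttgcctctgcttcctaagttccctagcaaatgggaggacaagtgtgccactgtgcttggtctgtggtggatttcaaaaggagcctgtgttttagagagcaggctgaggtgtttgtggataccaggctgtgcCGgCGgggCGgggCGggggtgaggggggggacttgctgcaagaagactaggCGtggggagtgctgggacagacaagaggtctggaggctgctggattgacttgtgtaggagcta

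The *Igfbp4* window held 27 CpG sites, the *Oat* window 22 and the *Acot7* window 6. Over all 32851 windows of this length the median was 7 CpG sites, with quartiles of 3 and 20. The *Acot7* window therefore lay near the median and the other 2 above the upper quartile. Of the other members, *Smad3* had 25 CpG sites, *Cxcl12* and *Zdhhc9* 20 each, *Cat* 11, *Mgst1* 13 and 1 in its 2 windows, and *Lmo4* 30, 31 and 52 in its 3 windows. Methylation was not measured. The HIF core motif ACGTG, searched on both strands, occurred in windows of 3 members, *Lmo4*, *Oat* and *Zdhhc9*, and in 19.6% of all windows. The SMAD box CAGAC, searched likewise, occurred in windows of *Acot7*, *Oat* and *Zdhhc9* and in 49.6% of all windows. The MAF recognition motif TGCTGAC, searched likewise, occurred in *Lmo4* and in 4.7% of all windows. None of the 3 motifs contains another on either strand, and a match describes the sequence only.

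To check the label, levels were compared per length as RPKM, the normalized CPM per kilobase of merged exons. In control tumors the members ranged from 0.958 RPKM for *Cxcl12* to 14.2 RPKM for *Oat*, with a median of 2.665 RPKM. The 16 beta-cell genes ranged from 22.0 to 18200 RPKM, so that every member lay below every one of them. The lowest of the 16, *Kcnj11*, was itself above 86.1% of all tested genes. Lying below such genes therefore does not tell whether a member is silenced. The median of all tested genes was 5.07 RPKM. *Oat*, *Igfbp4* and *Cat* were above that median, and the other 7 members were below it. All 10 had reads in every tumor, and tumor RNA does not resolve which cell type held them. The order in control tumors (mean ± SD, n = 4) was *Oat* at 14.2 ± 3.84 RPKM, *Igfbp4* at 11.8 ± 3.73 RPKM, *Cat* at 6.16 ± 1.33 RPKM, *Lmo4* at 2.98 ± 1.46 RPKM, *Mgst1* at 2.78 ± 0.802 RPKM, *Smad3* at 2.55 ± 0.292 RPKM, *Zdhhc9* at 2.29 ± 0.221 RPKM, *Maf* at 1.60 ± 0.282 RPKM, *Acot7* at 1.55 ± 0.293 RPKM and *Cxcl12* at 0.958 ± 0.215 RPKM. Of neighbours in this order, *Zdhhc9* and *Maf* were the 1 pair whose tumors did not overlap. In sunitinib-treated tumors *Igfbp4* was first at 29.8 ± 46.2 RPKM and *Maf* last at 0.854 ± 0.543 RPKM. In R+S-treated tumors *Oat* was first at 10.6 ± 3.21 RPKM, and *Maf* was again last, at 0.668 ± 0.126 RPKM. The first and last places in the treated groups differed from their neighbours by less than the spread between tumors, except for *Oat* and *Cat* in R+S-treated tumors, which did not overlap.

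**Figure D1:**
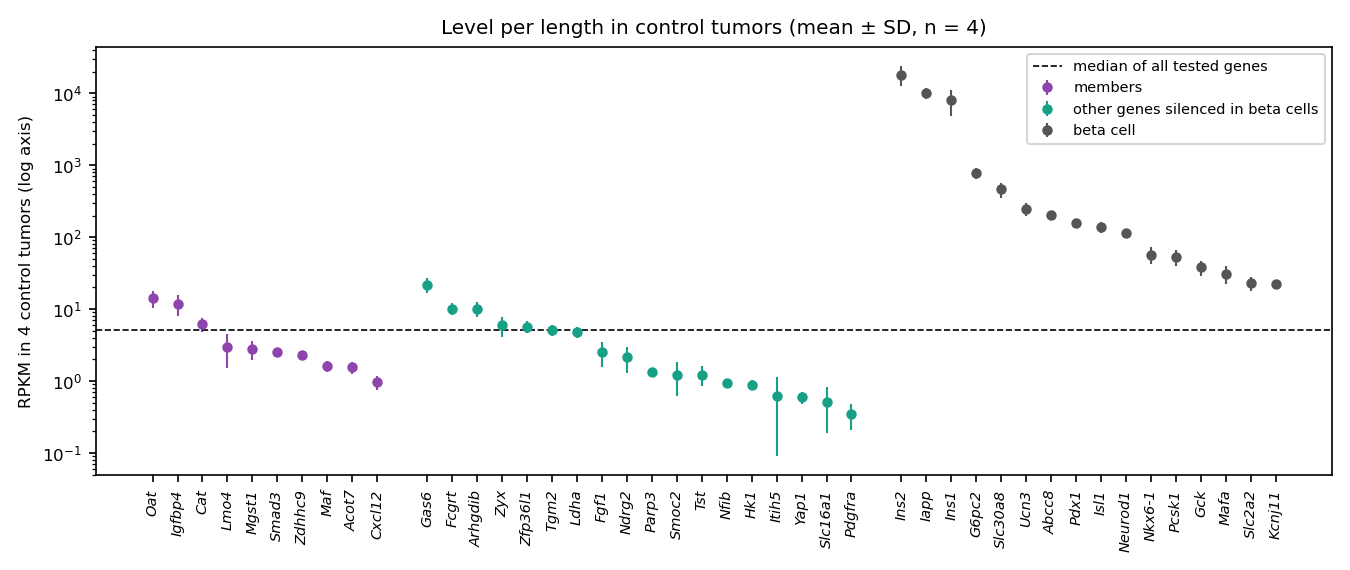
Level per length in the 4 control tumors (RPKM, log axis; points are means, bars SD) for the 10 members, 18 other genes silenced in beta cells and 16 beta-cell genes, with the median of all tested genes as a dashed line at 5.07 RPKM. The members lie between 0.958 and 14.2 RPKM, below all beta-cell genes, which start at 22.0 RPKM.

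By edgeR's quasi-likelihood test over all 12 tumors, with a threshold of 0.05 on the adjusted p, 0 members were called in sunitinib-treated or in R+S-treated against control tumors. Between R+S-treated and sunitinib-treated tumors 1 of 10 was called, *Acot7*, which was lower with R+S. Over all genes tested, the share called was 4.48% in the first comparison, 4.16% in the second and 7.21% in the third. At an unadjusted p under 0.05 there were 2 members in the first (*Mgst1* and *Maf*), 2 in the second (*Acot7* and *Maf*) and 5 in the third (*Acot7*, *Igfbp4*, *Cxcl12*, *Oat* and *Mgst1*). Of all 16645 genes tested, 3247, 3347 and 5067 had an unadjusted edgeR p under 0.05 in the 3 comparisons. DESeq2 called 1 member in the first (*Mgst1*, against 9.06% of all genes), 1 in the second (*Maf*, against 10.4%) and 3 in the third (*Acot7*, *Oat* and *Cxcl12*, against 19.5%), and gave no adjusted p to *Igfbp4*. With 10 members, 1 call is a share of 10%, so these counts are not set apart from the shares of all genes.

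Leaving out sunitinib-treated tumor 6 changed the calls. Without it, 1 of 10 members was called in sunitinib-treated against control tumors (*Maf*, lower), against 5.3% of all genes. Against control, R+S-treated tumors had 3 of 10 called (*Igfbp4*, *Acot7* and *Maf*, all lower), against 9.67% of all genes. Between R+S-treated and sunitinib-treated tumors *Acot7* was again the 1 member called, against 10.1% of all genes. The second comparison contains no sunitinib-treated tumor, and its fold changes stayed the same to 2 decimals for these 3 genes, while their standard errors, which share 1 estimate of the spread over all groups in the fit, became smaller.

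Groups that did not overlap were counted without a model. Every R+S-treated tumor was below every control tumor for 3 members, *Igfbp4*, *Acot7* and *Maf*, against 23.5% of all genes without overlap in either direction. Between R+S-treated and sunitinib-treated tumors this held for 2 members, *Acot7* and *Cxcl12*, both lower with R+S, against 18.6% of all genes. In sunitinib-treated against control tumors it held for 0 members, against 10.9% of all genes. The exact permutation test of 4 tumors against 4 (two-sided) cannot go below 0.0286, and these 5 pairs of groups had that value, which became 0.172 after adjustment over the 30 tests of single members. The members' median log2 fold change was 0.48 in sunitinib-treated against control tumors, with 7 of 10 positive, beside 0.03 over all genes, and it was 0.00 without tumor 6. With R+S against control it was -0.27, with 3 of 10 positive, beside 0.01 over all genes. With R+S against sunitinib it was -0.46, with 1 of 10 positive, beside -0.03 over all genes, and -0.26 without tumor 6. Of all 16645 genes tested, 8865, 8489 and 8027 had a positive log2 fold change in these 3 comparisons.

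**Figure D2:**
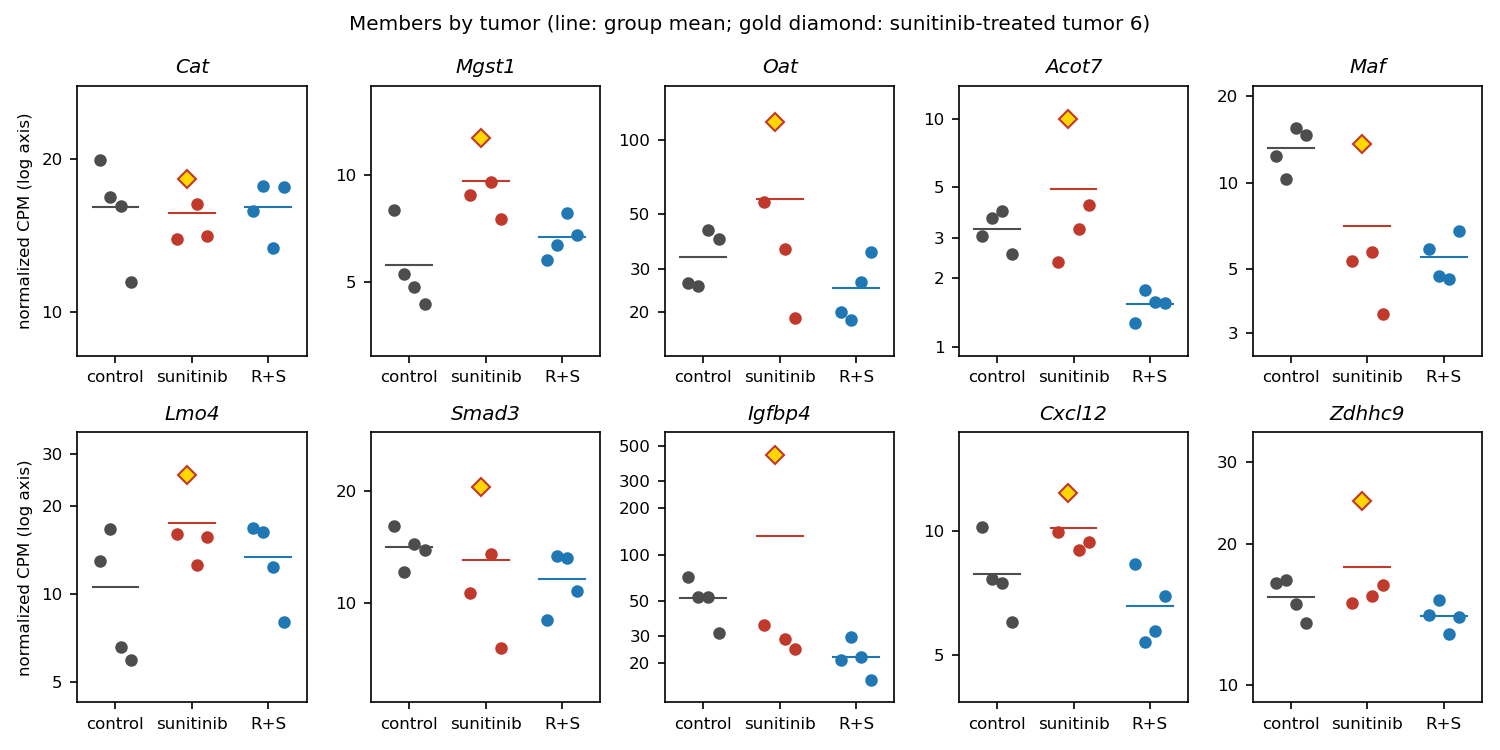
Normalized CPM (log axis, a range of its own in each panel) of the 10 members in each of the 12 tumors, with group means as lines and sunitinib-treated tumor 6 as a gold diamond. Tumor 6 is the highest point in 8 of the 10 panels, and the R+S-treated tumors lie below all control tumors for *Acot7*, *Maf* and *Igfbp4*.

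Catalase and *Mgst1* handle peroxides and reactive compounds. *Cat* encodes the peroxisomal enzyme that splits hydrogen peroxide. It had 19.9, 16.9, 16.2 and 11.5 CPM in control tumors 1 to 4, 13.9, 18.3, 16.4 and 14.1 CPM in sunitinib-treated tumors 5, 6, 8 and 12, and 15.8, 17.7, 13.4 and 17.6 CPM in R+S-treated tumors 4, 5, 7 and 10. All 3 groups overlapped, and the spread was widest among control tumors. The log2 fold changes were -0.04 (SE 0.182) in sunitinib-treated and 0.00 (SE 0.182) in R+S-treated tumors against control, with edgeR adjusted p-values of 0.925 and 0.996.

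*Mgst1* encodes a membrane-bound glutathione transferase that also reduces lipid peroxides. It had 7.96, 5.26, 4.85 and 4.34 CPM in control tumors, 8.80, 12.7, 9.55 and 7.54 CPM in sunitinib-treated tumors and 5.77, 6.36, 7.81 and 6.78 CPM in R+S-treated tumors. Sunitinib-treated tumors were above control tumors 2, 3 and 4, while control tumor 1 was above sunitinib-treated tumor 12. The log2 fold change with sunitinib was 0.78 (SE 0.24, edgeR adjusted p = 0.1), and 0.62 (adjusted p = 0.153) without tumor 6. Without control tumor 1 it was 1.00 with an edgeR adjusted p of 0.0375, so that 1 control tumor decided the edgeR call. DESeq2 called *Mgst1* with all 12 tumors (adjusted p = 0.0145). With R+S the log2 fold change was 0.25 (SE 0.239) against control and -0.53 (SE 0.239) against sunitinib, with edgeR adjusted p-values of 0.589 and 0.158.

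Of 18 other genes of peroxide and glutathione metabolism, 1 rose in sunitinib-treated against control tumors, 0 changed in R+S-treated against control tumors, where 3 had an unadjusted p under 0.05, and 2 were lower in R+S-treated than in sunitinib-treated tumors by edgeR. The gene that rose was *Prdx4*, a peroxiredoxin of the endoplasmic reticulum, with a log2 fold change of 0.91 (SE 0.205, adjusted p = 0.0272). *Prdx4* and *Prdx2*, a cytosolic peroxiredoxin, were lower with R+S than with sunitinib, with log2 fold changes of -0.76 and -0.75 (edgeR adjusted p = 0.0474 and 0.0425). Without tumor 6 these were -0.59 and -0.67 and were not called (adjusted p = 0.0667 and 0.0574), while *Prdx3*, the mitochondrial peroxiredoxin, was called as lower (-0.69, adjusted p = 0.0303). *Prdx1* had -0.56 in that comparison (adjusted p = 0.0502).

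*Oat* and *Acot7* encode metabolic enzymes. *Oat*, the mitochondrial ornithine aminotransferase that links ornithine with glutamate and proline, had 26.2, 25.5, 43.1 and 39.7 CPM in control tumors, 56.1, 118, 36.0 and 18.9 CPM in sunitinib-treated tumors and 20.1, 18.6, 26.5 and 35.2 CPM in R+S-treated tumors. Sunitinib-treated tumors spanned a wider range than the other 8 tumors together, with tumor 12 below and tumors 5 and 6 above all control tumors. With sunitinib the log2 fold change was 0.77 (SE 0.453, edgeR adjusted p = 0.374) and 0.14 without tumor 6. Between R+S and sunitinib it was -1.19 (SE 0.456, edgeR adjusted p = 0.11) and -0.56 without tumor 6. The gene span of *Oat*, at chr7:132557478-132576398 on the minus strand, is overlapped on the same strand by that of *Fgfr2*, and reads that fit exons of both genes are counted on neither.

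Of 11 other genes of ornithine and proline metabolism, 10 were tested. In sunitinib-treated against control tumors 1 rose, *Arg2*, the mitochondrial arginase, with a log2 fold change of 1.30 (edgeR adjusted p = 0.0457). It was named after its values were seen, and without tumor 6 it had 1.31 (adjusted p = 0.0559). With R+S against control 0 changed by edgeR, and 4 had an unadjusted p under 0.05. Without tumor 6, 2 were called as lower in that comparison, *Pycr1* (-1.32, adjusted p = 0.0225) and *Srm* (-1.03, adjusted p = 0.0337), with the same fold changes as in the fit with it. With R+S against sunitinib 3 were lower: *Arg1*, the cytosolic arginase, with a log2 fold change of -4.40 (SE 0.807, adjusted p = 0.0252), *Pycr1*, which makes proline, with -1.35 (SE 0.351, adjusted p = 0.0422) and *Srm*, the spermidine synthase, with -1.13 (SE 0.285, adjusted p = 0.0391). All 3 were called without tumor 6 as well, where *Arg1* had -3.43, and *Aldh18a1*, which makes a precursor of proline, was called too (-0.74, adjusted p = 0.0349). *Arg1* was a rare transcript, at 0.0495 to 0.253 CPM with R+S and 0.501 to 6.58 CPM with sunitinib.

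*Acot7* encodes a cytosolic acyl-CoA thioesterase, which releases fatty acids from coenzyme A. It had 3.06, 3.65, 3.93 and 2.54 CPM in control tumors, 2.35, 9.92, 3.27 and 4.17 CPM in sunitinib-treated tumors and 1.28, 1.77, 1.58 and 1.56 CPM in R+S-treated tumors. These levels rest on 46 to 70 reads in each R+S-treated tumor, 90 to 155 in each control tumor and 92 to 359 in each sunitinib-treated tumor. All 4 R+S-treated tumors lay below the other 8 tumors. *Acot7* was lower with R+S than with sunitinib by a log2 fold change of -1.67 (SE 0.403, edgeR adjusted p = 0.0355). Without tumor 6 the log2 fold change was -1.07 (edgeR adjusted p = 0.0321). The call was kept when control tumor 1 or sunitinib-treated tumor 5, 6 or 8 was left out, and lost when any 1 of the other 8 tumors was left out, with edgeR adjusted p-values from 0.0115 to 0.104 over all 12 fits. Against control the log2 fold change with R+S was -1.09 (SE 0.398, edgeR adjusted p = 0.152), and the same value had an adjusted p of 0.0184 without tumor 6. With sunitinib alone it was 0.58 (SE 0.391) with tumor 6 and -0.01 without it.

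Of 12 other acyl-CoA thioesterase genes, 10 were tested. *Acot2*, a mitochondrial thioesterase, rose both with sunitinib (log2 fold change 1.15, SE 0.217, edgeR adjusted p = 0.00946) and with R+S (1.02, SE 0.217, adjusted p = 0.0225) against control, which are comparisons that share the control tumors. *Acot1*, its cytosolic relative with a similar sequence, for which reads may be split or lost between both genes, rose with sunitinib (1.76, SE 0.449, edgeR adjusted p = 0.0484) at 0.51 to 1.69 CPM. Without tumor 6 it was not called with sunitinib (1.2, adjusted p = 0.0851) but was called with R+S against control (1.68, adjusted p = 0.011, beside 0.0584 with tumor 6). *Acot9* had 0.49 with sunitinib (adjusted p = 0.295). Between R+S and sunitinib no gene of this list was called by edgeR, and 2 had an unadjusted p under 0.05.

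*Maf*, *Lmo4* and *Smad3* encode regulators of transcription. *Maf* encodes c-MAF, a large MAF factor related to the beta-cell factor MAFA. It had 12.4, 10.3, 15.5 and 14.6 CPM in control tumors, 5.33, 13.6, 5.73 and 3.50 CPM in sunitinib-treated tumors and 5.85, 4.72, 4.62 and 6.81 CPM in R+S-treated tumors. Apart from tumor 6, which lay within the control range, all treated tumors lay below all control tumors. The log2 fold change with sunitinib was -0.91 (SE 0.36, edgeR adjusted p = 0.192), and -1.44 (SE 0.239, adjusted p = 0.00439) without tumor 6. With R+S it was -1.26 (SE 0.363, edgeR adjusted p = 0.0744) and -1.26 (SE 0.216, adjusted p = 0.00554) without tumor 6. The log2 fold change between R+S and sunitinib was -0.36 (SE 0.359, edgeR adjusted p = 0.521), and 0.18 without tumor 6. The locus, chr8:115682942-115707794 on the minus strand, is overlapped on the other strand by the predicted antisense gene *Gm15655*. The library kit keeps strand, but the strand setting of the counting is not given in the sources used here.

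Low sums of endothelial transcripts went with low *Maf* in the treated tumors other than tumor 6. The 12 endothelial genes summed to at least 533 CPM where *Maf* was 10.3 CPM or more in control tumors, and to 74.4 to 176 CPM in the 7 treated tumors with *Maf* at 3.50 to 6.81 CPM. Tumor 6 had *Maf* at 13.6 CPM and endothelial genes at 114 CPM. Their part in the *Maf* values was not tested.

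**Figure D3:**
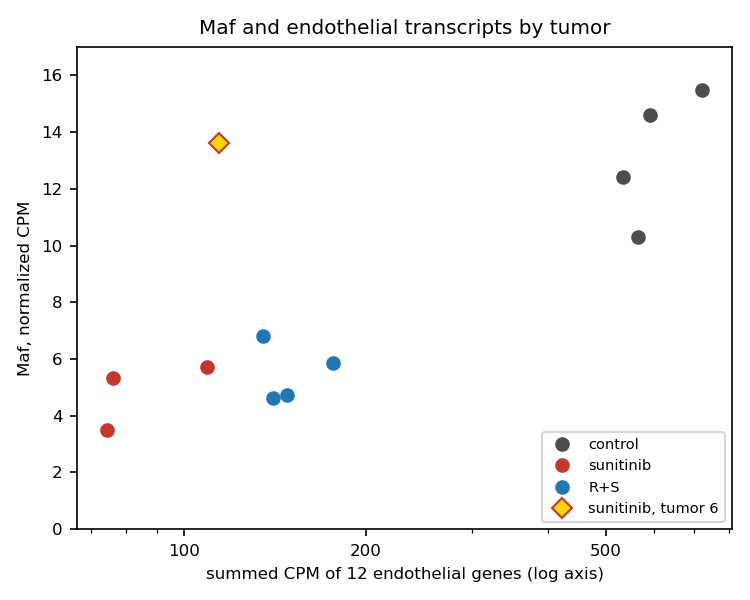
*Maf* (normalized CPM) against the summed CPM of 12 endothelial genes (log axis) in each of the 12 tumors. Control tumors sit at 533 to 722 CPM of endothelial genes with *Maf* from 10.3 to 15.5 CPM, and sunitinib-treated tumor 6 (gold diamond) has *Maf* at 13.6 CPM with endothelial genes at 114 CPM.

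*Lmo4* encodes a LIM-only adaptor that binds LDB proteins and other factors but not DNA. It had 12.9, 16.6, 6.57 and 5.95 CPM in control tumors, 15.95, 25.4, 12.5 and 15.6 CPM in sunitinib-treated tumors and 16.7, 16.2, 12.4 and 8.00 CPM in R+S-treated tumors. Control tumors 1 and 2 were higher than control tumors 3 and 4, and the groups overlapped. The log2 fold change was 0.72 with sunitinib (SE 0.365, edgeR adjusted p = 0.302) and 0.34 with R+S (SE 0.364, adjusted p = 0.641) against control.

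Of 10 other MAF family and LMO partner genes, 9 were tested and 0 were called in the 3 comparisons by edgeR, with 0, 1 and 0 at an unadjusted p under 0.05. *Ldb2*, a LIM-domain-binding partner, had 5.07 to 9.36 CPM in control tumors, 0.802 to 1.64 CPM in sunitinib-treated tumors 5, 8 and 12, 15.1 CPM in tumor 6 and 1.61 to 2.07 CPM in R+S-treated tumors. As for *Maf*, tumor 6 was the 1 treated tumor that was not below all control tumors. Its log2 fold change with sunitinib was -0.75 (edgeR adjusted p = 0.624) with tumor 6 and -2.73 (adjusted p = 0.000397) without it. With R+S against control *Ldb2* had -2.09 in both fits (adjusted p = 0.168 with tumor 6 and 0.00104 without it). *Lmo2* had -1.01 with sunitinib (adjusted p = 0.271) and *Ldb1* 0.03 (adjusted p = 0.92).

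*Smad3* encodes a transducer of TGF-beta and activin signals. It had 16.1, 12.2, 14.4 and 13.9 CPM in control tumors, 10.7, 20.5, 13.5 and 7.60 CPM in sunitinib-treated tumors and 9.04, 13.4, 13.3 and 10.8 CPM in R+S-treated tumors. The groups overlapped, and sunitinib-treated tumors held both the highest and the lowest value. Against control the log2 fold change was -0.11 with sunitinib (SE 0.268, edgeR adjusted p = 0.843) and -0.28 with R+S (SE 0.268, adjusted p = 0.593). Without tumor 6 the value with sunitinib was -0.41 (adjusted p = 0.317).

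All 14 other genes of TGF-beta signaling were tested. In sunitinib-treated against control tumors 1 fell, *Tgfbr2*, the type II receptor for TGF-beta, with a log2 fold change of -1.20 (SE 0.203, edgeR adjusted p = 0.00449). In R+S-treated against control tumors 0 changed, with 2 at an unadjusted p under 0.05. *Smad4*, the shared partner of receptor SMADs, was higher with R+S than with sunitinib, by 0.53 (SE 0.115, edgeR adjusted p = 0.0295). *Smad2* had -0.39 with sunitinib (adjusted p = 0.0706) and -0.41 with R+S (adjusted p = 0.0529) against control. Without tumor 6, 2 genes were called as lower with R+S against control, *Smad2* (-0.41, adjusted p = 0.0281) and *Smad6*, an inhibitory SMAD (-1.56, adjusted p = 0.0109). *Smad6* was then also called as lower with sunitinib, at -1.73 (adjusted p = 0.0123) beside -0.05 with tumor 6, where it was at 4.70 CPM against 0.321 to 0.66 CPM in the other 3.

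*Igfbp4* and *Cxcl12* encode secreted proteins. *Igfbp4* encodes a binding protein that holds insulin-like growth factors away from their receptor. It had 71.5, 53.0, 53.0 and 31.2 CPM in control tumors, 35.3, 437, 28.6 and 24.6 CPM in sunitinib-treated tumors and 20.9, 29.4, 21.7 and 15.6 CPM in R+S-treated tumors. R+S-treated tumors lay below all control tumors, and sunitinib-treated tumors 8 and 12 did too, whereas tumor 6 was above every other tumor. With sunitinib the log2 fold change was 1.33 (SE 0.814, edgeR adjusted p = 0.392), and it turned to -0.82 (SE 0.273, adjusted p = 0.124) without tumor 6. With R+S it was -1.25 against control, with SE 0.816 and an edgeR adjusted p of 0.417, and with SE 0.252 and an adjusted p of 0.0124 without tumor 6. Between R+S and sunitinib it was -2.58 (SE 0.85, edgeR adjusted p = 0.0773) with tumor 6 and -0.43 (adjusted p = 0.283) without it. In that comparison it was called when sunitinib-treated tumor 5 was left out (adjusted p = 0.0416).

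Of 13 other IGF-binding proteins, IGFs and regulators, 12 were tested. In sunitinib-treated against control tumors 2 fell, *Igfbp3*, the main IGF carrier of serum, with a log2 fold change of -3.58 (SE 0.423, edgeR adjusted p = 0.000414) and *Igfbp7*, a related protein abundant in blood vessels, with -1.44 (SE 0.242, adjusted p = 0.00436). In R+S-treated against control tumors 3 fell, *Igfbp3* with -3.22 (SE 0.415, edgeR adjusted p = 0.00125), *Igfbp7* with -0.96 (SE 0.239, adjusted p = 0.0457) and *Igfbp2*, named after its values were seen, with -2.07. *Igf1r*, the receptor, was higher with R+S than with sunitinib, by 0.91 (SE 0.226, adjusted p = 0.038). Without tumor 6, *Igfbp5* was called as higher (1.13, adjusted p = 0.0488) and *Stc1* as lower (-2.50, adjusted p = 0.0179) with R+S against control, and *Igfbp3* as higher with R+S than with sunitinib (0.96, adjusted p = 0.0431, beside 0.37 with it). In sunitinib-treated tumor 6 *Igfbp3* was at 24.0 CPM, above the 5.68 to 10.2 CPM of the other 3, and below the 101 to 187 CPM of control tumors, unlike *Igfbp4*. Endothelial sums were lower in the same groups as *Igfbp3* and *Igfbp7*, and their part was not tested.

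*Cxcl12* encodes the chemokine that binds CXCR4 and ACKR3. It had 10.2, 7.65, 7.46 and 6.00 CPM in control tumors, 9.90, 12.4, 8.97 and 9.40 CPM in sunitinib-treated tumors and 8.30, 5.35, 5.71 and 6.96 CPM in R+S-treated tumors. All 4 sunitinib-treated tumors lay above all 4 R+S-treated tumors, and control tumors overlapped both. The log2 fold change between R+S and sunitinib was -0.63 (SE 0.219, edgeR adjusted p = 0.0871) and -0.52 (adjusted p = 0.123) without tumor 6. Against control it was 0.38 with sunitinib (SE 0.218, edgeR adjusted p = 0.369) and -0.25 with R+S (SE 0.218, adjusted p = 0.551). None of 4 genes for receptors, degraders and a relative of this chemokine was called by edgeR in the 3 comparisons, with 1, 1 and 0 at an unadjusted p under 0.05. *Ackr3*, the scavenging receptor, had -1.89 with sunitinib (SE 0.495, adjusted p = 0.0553), *Dpp4*, the protease that inactivates CXCL12, -1.05 (adjusted p = 0.299) and *Cxcl14* -0.34 (adjusted p = 0.583). *Dpp4* was at 3.10 CPM in tumor 6, 32.7 to 45.4 CPM in the other sunitinib-treated tumors and 48.1 to 68.2 CPM in control tumors. Without tumor 6 it was called as lower with sunitinib (-0.67, edgeR adjusted p = 0.0343).

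*Zdhhc9* encodes a Golgi palmitoyltransferase that acts on RAS proteins together with GOLGA7. It had 16.5, 16.8, 14.9 and 13.6 CPM in control tumors, 15, 24.8, 15.5 and 16.3 CPM in sunitinib-treated tumors and 14.2, 15.2, 12.9 and 13.99 CPM in R+S-treated tumors. The 11 tumors other than tumor 6 lay within a narrow range, from 12.9 to 16.8 CPM, and tumor 6 lay above it. The log2 fold changes were 0.21 with sunitinib (SE 0.173, edgeR adjusted p = 0.525) and -0.14 with R+S (SE 0.173, adjusted p = 0.706) against control. Of the 20 genes for other palmitoyltransferases and GOLGA7, 0 were called with sunitinib (3 at an unadjusted p under 0.05), 1 rose with R+S against control and 1 was higher with R+S than with sunitinib by edgeR. These were *Zdhhc1*, by 0.68 (SE 0.144, adjusted p = 0.0231), and *Zdhhc3*, by 0.81 (SE 0.179, adjusted p = 0.03). Without tumor 6, 4 were called as higher with R+S against control, *Zdhhc1*, *Zdhhc2*, *Zdhhc20* and *Zdhhc24*, and 2 as higher with R+S than with sunitinib, *Zdhhc3* and *Zdhhc20*. *Zdhhc23* had 1.48 between R+S and sunitinib (adjusted p = 0.066).

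**Figure D4:**
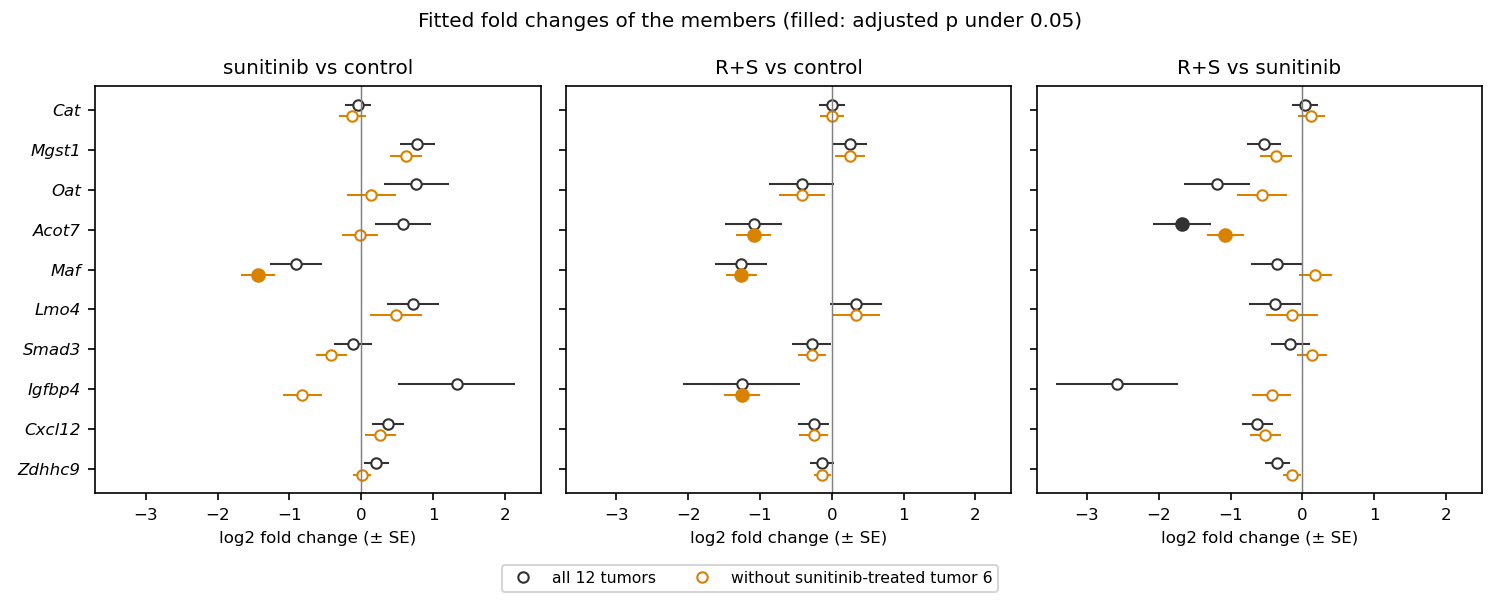
Fitted log2 fold changes (points) with standard errors (bars) of the 10 members in the 3 comparisons, with all 12 tumors (black) and without sunitinib-treated tumor 6 (orange); filled points have an edgeR adjusted p under 0.05. With all tumors the 1 filled point is *Acot7* in R+S against sunitinib at -1.67, and without tumor 6 the *Igfbp4* value with sunitinib moves from 1.33 to -0.82.

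Sunitinib-treated tumor 6 was the highest of the 12 tumors for 8 of the 10 members. The 2 exceptions were *Cat*, where it was the second highest at 18.3 CPM, and *Maf*, where it came after control tumors 3 and 4. Tumor 6 was also the highest tumor for 22.6% of all tested genes and the lowest for 22.6%, and it was the lowest for 0 members. Sunitinib-treated tumor 12 was the highest for 21.3% of all genes and for 0 members. All 10 members were higher in tumor 6 than in the mean of the other 3 sunitinib-treated tumors, with a median log2 ratio of 0.87 beside -0.01 over all genes. Of all 16645 tested genes, 8215 were higher in tumor 6 than in that mean. The ratio was over 2 for 4 of 10 members (40.0%), *Igfbp4* at 14.8, *Oat* at 3.18, *Acot7* at 3.04 and *Maf* at 2.80, and for 13.1% of all genes. The other 6 ratios were 1.93 for *Smad3*, 1.73 for *Lmo4*, 1.59 for *Zdhhc9*, 1.47 for *Mgst1*, 1.31 for *Cxcl12* and 1.24 for *Cat*. As it is 1 tumor, these ratios have no replicate.

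The beta-cell genes had the opposite direction in tumor 6. All 16 were below the mean of the other 3 sunitinib-treated tumors, 13 of them by more than 2-fold, with a median log2 ratio of -3.89. *Pdx1*, a transcription factor that beta cells need, was at 4.17 CPM against 288 CPM, and *Mafa*, which drives insulin genes, at 3.04 against 116 CPM. *Isl1* and *Neurod1*, factors of all islet endocrine cells, had less distant values, 330 against 443 CPM and 165 against 264 CPM. Tumor 6 had the highest acinar sum of the 12 tumors, at 40000 CPM beside 33100 CPM in sunitinib-treated tumor 8. Its leukocyte sum of 255 CPM and its duct sum of 269 CPM were the lowest of the 12 tumors, and its fibroblast and pericyte sum of 865 CPM was the lowest of its group. Of the alpha-cell markers, *Irx1* was at 169 CPM in tumor 6 against 0.16 to 0.449 CPM in the other 3, and *Irx2* at 340 CPM against 9.91 to 19.3 CPM. The part of cell composition in the members' values in tumor 6 was not tested.

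**Figure D5:**
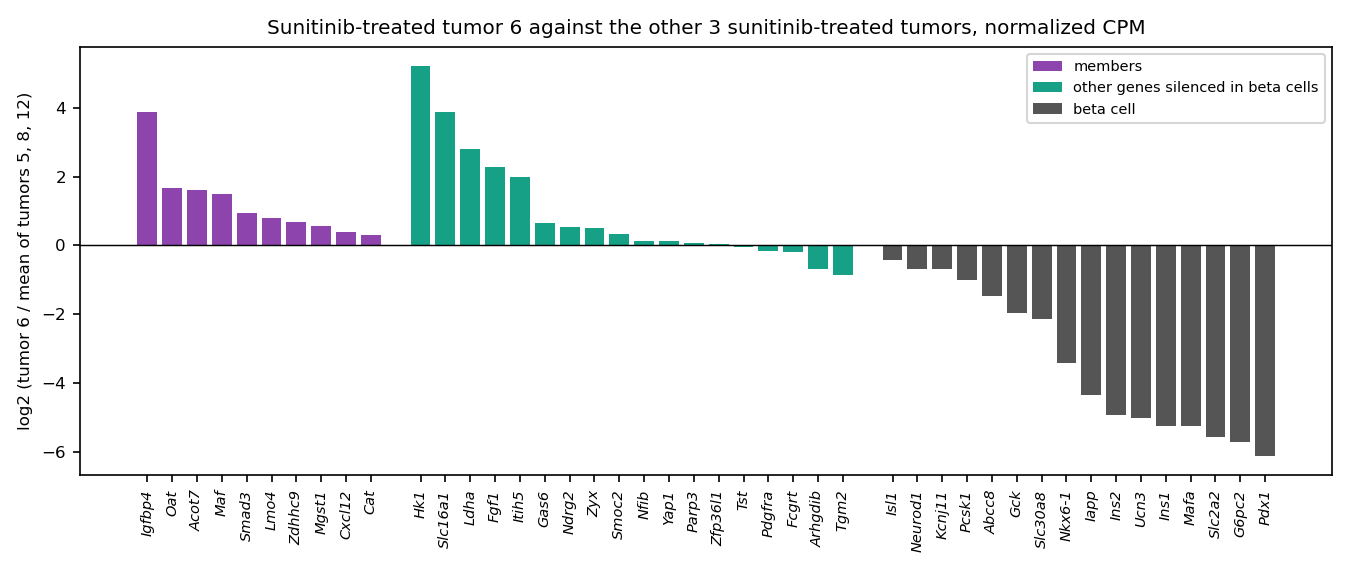
Bars give log2 of normalized CPM in sunitinib-treated tumor 6 over the mean of sunitinib-treated tumors 5, 8 and 12, for the 10 members, 18 other genes silenced in beta cells and 16 beta-cell genes. All 10 members are above 0, as are 13 of the 18 other silenced genes, and all 16 beta-cell genes are below 0.

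The 18 other genes silenced in beta cells were a mixed list in the same data. Their control levels ranged from 0.347 to 21.8 RPKM, with a median of 1.75 RPKM, and so overlapped those of the members. In sunitinib-treated against control tumors 2 rose and 3 fell by edgeR. Those that rose were *Ldha*, the muscle-type lactate dehydrogenase, with a log2 fold change of 2.93 (SE 0.65, adjusted p = 0.0249), and *Tst*, a mitochondrial sulfurtransferase, with 0.97 (SE 0.246, adjusted p = 0.0471). Those that fell were *Nfib*, a nuclear factor I protein, with -1.28 (SE 0.203, adjusted p = 0.00302), *Fcgrt*, the neonatal Fc receptor, with -0.92 (SE 0.167, adjusted p = 0.00741), and *Zfp36l1*, which promotes mRNA decay, with -0.97 (SE 0.237, adjusted p = 0.0397). In R+S-treated against control tumors *Fcgrt* and *Nfib* fell, and against sunitinib-treated tumors *Ldha* and *Tst* were lower with R+S. Without tumor 6 *Ldha* had 1.60 with sunitinib against control (adjusted p = 0.00448) and -1.59 with R+S against sunitinib (adjusted p = 0.0195), beside -2.92 with it, and *Zfp36l1* was not called (-0.98, adjusted p = 0.0517). With R+S against control 5 genes were then called as lower, *Arhgdib*, *Hk1* and *Gas6* besides *Fcgrt* and *Nfib*. The median log2 fold changes of the list were -0.10, -0.39 and -0.30 in the 3 comparisons, and -0.33, -0.39 and -0.15 without tumor 6. The genes of this list that are named were picked after their values were seen.

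In tumor 6, 13 of these 18 genes were above the mean of the other sunitinib-treated tumors, 5 of them more than 2-fold, and 5 were the highest of the 12 tumors. Of all 16645 tested genes, 8215 were above that mean. The ratio was over 2 for 13.1% of all genes, and tumor 6 was the highest for 22.6%. *Hk1*, the hexokinase with high affinity for glucose, was at 185 CPM against 5.05 CPM, *Slc16a1*, the monocarboxylate carrier MCT1, at 82.4 against 5.57 CPM, and *Ldha* at 340 against 48.4 CPM. *Fgf1* was at 43.9 against 9.06 CPM and *Itih5* at 9.34 against 2.35 CPM. The median log2 ratio of the list was 0.23, lower than that of the members.

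Across the 12 tumors, the 45 pairs of members had Pearson correlations of log2 CPM between -0.34 and 0.907 with a median of 0.489, and 21 pairs were over 0.5. Without tumor 6 the median was 0.19 and 9 pairs were over 0.5. The closest pair was *Igfbp4* and *Zdhhc9* at 0.907, which went to 0.616 without tumor 6, and the most opposed was *Lmo4* and *Maf* at -0.34, which went to -0.648. Treatment, prefix and the summed cell-type markers differ together between the tumors, so these values describe these 12 samples only.

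The genes with the pattern most like that of each member over the 12 tumors were sought among 10968 genes with a mean log2 CPM of at least 3. They were *Sorbs3*, *Dysf* and *Arhgef15* for *Maf* (Pearson's r 0.957, 0.956 and 0.95), and *Ubl4a*, *Pwp2* and *Acat2* for *Acot7* (0.981, 0.969 and 0.955). For *Igfbp4* they were *Ywhag*, *Wdr77* and *Hk1* (0.968, 0.965 and 0.959), and for *Oat* they were *Gphn*, *Nup107* and *Akap17b* (0.95, 0.948 and 0.947). For *Lmo4* they were *Decr1*, *Nrsn1* and *Ppard* (0.956, 0.935 and 0.93), for *Smad3* *Slc44a2*, *Camk1g* and *Phldb1* (0.936, 0.922 and 0.921), and for *Zdhhc9* *Hsd17b12*, *Psmb10* and *Umps* (0.948, 0.946 and 0.939). For *Mgst1* they were *Spp1*, *Clu* and *Habp2* (0.902, 0.896 and 0.887), for *Cxcl12* *Vmp1*, *Tmed1* and *Gng5* (0.896, 0.888 and 0.879), and for *Cat* *Rnase4*, *Rpp14* and *Supt7l* (0.856, 0.82 and 0.806). *Hk1* is 1 of the 18 other silenced genes, and *Spp1* is 1 of the duct genes. Without tumor 6 the correlations of these 30 pairs ranged from 0.741 for *Umps* with *Zdhhc9* to 0.972 for *Sorbs3* with *Maf*.

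The members lie on 9 chromosomes (GRCm38, GENCODE M21). Those with the largest differences are *Igfbp4* at chr11:99041244-99054392 on the plus strand, *Acot7* at chr4:152178134-152271855 on the plus strand and, given above, *Oat* and *Maf*. The RefSeq start of the printed *Acot7* window lies inside this span, since the span begins with the start of another transcript. *Lmo4* and *Acot7* each contain a small predicted gene within an intron on the same strand.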

How the data were processed

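RNA-seq counts of 12 tumors were used, with groups and replicate numbers taken from the labels. The authors deposited raw counts of reads per Ensembl gene, as whole numbers without normalization; the submitters' processing notes name cutadapt 1.2.1, TopHat2 2.0.9, HTSeq 0.5.4p3 and GRCm38. The annotation release and the strand setting of the counting are not given in the sources used here. The 5 summary lines of htseq-count were left out. Symbols and lengths came from GENCODE M21.

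Counts were TMM-normalized, filtered by filterByExpr (minimum count 10, minimum total 15) and fitted with edgeR 4.0.16 (R 4.3.3; robust quasi-likelihood F-tests) in 1 model of 12 tumors, with Benjamini-Hochberg adjustment over 16645 genes and a threshold of 0.05. Log2 CPM used a prior count of 2, and the tumor 6 ratios over all genes used 0.01 CPM added to both sides. Single members were also tested by a two-sided exact permutation test (scipy 1.17.1). The steps were tested on simulated data. No duplicate library was found: the lowest chi-square per degree of freedom between tumors of a group was 22.8. DESeq2 1.42.0, other scalings, filters and sample sets, prefix-summed tumors, another gene length and each tumor left out were alternatives. PCR copies were not marked, so errors from counting alone are lower bounds.

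All members, partner lists (up to 3 genes each named, by smallest adjusted p), marker lists and most-similar genes (3 per member) follow a written rule. The members and lists were chosen with earlier results of these data known.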

Additional observations from a re-analysis of the deposited data

Results flagged for a closer look

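Of 30 groups of 4 tumors tested for a single distant value (10 members in 3 groups), 2 had one by Dixon's criterion at the 95% level, and chance alone gives about 1 in 20. *Igfbp4* in sunitinib-treated tumor 6 was at 437.3 CPM, while the other 3 tumors of the group had 24.58 to 35.32 CPM, so that the gap was 0.974 of the range. *Zdhhc9* in the same tumor was at 24.76 CPM, with 15 to 16.33 CPM in the other 3 and a gap of 0.864 of the range. Both came from the tumor with the lowest beta-cell sum, and the part of that difference was not tested.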

How the results depend on the processing

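Among the log2 fold changes of single members under alternatives, 554 kept their direction and their side of the threshold, 15 passed it, 10 no longer did and 21 changed sign. *Cat* in R+S against control changed sign near 0, at -0.00337 with DESeq2's size factors in edgeR, -0.043 with library size alone, -0.0277 with upper-quartile factors, -0.009 with at least 10 reads in every tumor, -0.008 with only the 8 tumors compared and -0.00404 in DESeq2. Leaving out 1 tumor at a time gave log2 fold changes with sunitinib against control of -0.821 to 1.67 for *Igfbp4*, -0.172 to 0.078 for *Cat*, -0.0147 to 0.818 for *Acot7* and -0.413 to 0.0737 for *Smad3*. In R+S against control it gave -0.128 to 0.12 for *Cat*, and in R+S against sunitinib -0.0215 to 0.125 for *Cat*, -0.354 to 0.133 for *Smad3* and -0.574 to 0.181 for *Maf*.

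The genes called with sunitinib against control went from 745 to 408 with at least 10 reads in every tumor, 380 with only the 8 tumors and 1477 in DESeq2, where 1 member was called. In R+S against control they went from 693 to 2557 with only the 8 tumors (3 members, *Igfbp4*, *Acot7* and *Maf*), 1688 in DESeq2 (1 member) and 458 at an absolute log2 fold change of at least 1, and summing treated tumors of a prefix called 1 member. In R+S against sunitinib they went from 1200 to 501 without a low-count filter (0 members), 3 with only the 8 tumors (0 members), 3045 in DESeq2 (3 members) and 408 at an absolute log2 fold change of at least 1. Both counts of 0 members are from edgeR, with 4 and 5 members at an unadjusted p under 0.05. Leaving out 1 tumor gave 440 to 902, 292 to 1627 and 0 to 2861 genes in the 3 comparisons, the 0 in edgeR without R+S-treated tumor 5, with 3870 at an unadjusted p under 0.05. It gave 0 to 1, 0 to 3 and 0 to 2 members, and member medians of 0.00114 to 0.584, -0.309 to -0.157 and -0.602 to -0.26. The cause was not tested. With the longest transcript as the length, 4 of 10 members kept their place in the control order.

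No paired analysis was possible because no pair of groups shared more than 1 replicate number. *Acot7* had 46 to 70 reads per R+S-treated tumor, which limits its precision.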
